A study of Mus musculus with 2 samples.

Results

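Ribosome biogenesis genes were followed across the cell types of the jejunal crypt in mice that lack miR-375. The group holds 40 genes of the 27998 in the count matrices. They were listed by function (nucleolar proteins, factors that process ribosomal RNA and subunits of RNA polymerase I, with Myc). The rule used no measured value, but the genes were chosen with earlier results of these data known. All 40 were found in the matrices. Crypts were released from the jejunum of 2 male mice for single-cell RNA-seq. Both mice were 12 months old, of the strain labelled C57BL6/2J, and carried a whole-body knockout of miR-375 (375KO). The knockout was made with CRISPR/Cas9 in FVB x B62J F1 hybrid embryos and crossed back to B6 albino mice. Each mouse gave 1 library (replicate 1 and replicate 2), and since both carry the deletion, there is no contrast of genotypes here. The authors kept 3275 cells and named 10 types in them: stem, transit-amplifying (TA), secretory progenitor, goblet progenitor, goblet, enterocyte, Paneth, enteroendocrine (EEC) and tuft cells, and intraepithelial lymphocytes (IEL).

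Ribosomes are built in the nucleolus. RNA polymerase I copies the ribosomal DNA into a long precursor, small nucleolar RNPs (snoRNPs) modify it, and large sets of processing factors cut and fold it into the small and the large subunit. The transcription factor Myc binds the promoters of many of these genes as a dimer with Max, and the Wnt signal that maintains stem cells at the crypt base is known to raise Myc. Ribosome production is known to be high in dividing crypt cells and to fall as cells mature on their way to the villus.

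The canonical E-box that Myc and Max bind, CACGTG, was searched in RefSeq promoters of the GRCm38.p6 build, from 250 bases before to 50 bases after each annotated start. The sequence is its own reverse complement, so a match on either strand is the same match. Promoters were matched for 33 of the 40 genes, and those of Npm1, Rrp12, Myc, Tcof1, Rrs1, Fbl and Bop1 were not analysed here. The motif was in the window of 6 of the 33 genes (18.2%), against 2187 of 27025 genes with a promoter in the table (8.09%). Among genes with windows between the 10th and 90th percentile of the members' GC content (49.0% to 70.5%), the share was 9.81%. These shares are a description, and no match says only that the 6 letters are not in the window. The stretches around the 6 matches are shown so that each match can be seen in its place. The motif is in capitals, and each stretch is written 5′ to 3′ on the strand of its gene.
Imp4, chr1:34439696-34439725, plus strand: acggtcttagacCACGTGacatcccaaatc
Mybbp1a, chr11:72441355-72441376, plus strand: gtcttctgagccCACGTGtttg
Nle1, chr11:82908355-82908384, minus strand: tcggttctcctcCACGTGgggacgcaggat
Nop2, chr6:125131811-125131840, plus strand: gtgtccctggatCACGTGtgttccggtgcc
Pes1, chr11:3963965-3963994, plus strand: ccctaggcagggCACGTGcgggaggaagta
Wdr43, chr17:71616220-71616249, plus strand: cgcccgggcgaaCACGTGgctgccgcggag
The first base of the motif lay upstream of the start in Imp4 (-121) and Nop2 (-60). In Pes1 (2), Wdr43 (17), Nle1 (23) and Mybbp1a (40) it lay downstream of it. Mybbp1a is a nucleolar partner of Myb, Nle1 acts late in assembly of the large subunit, Nop2 methylates its RNA, and Pes1 belongs to a complex that processes it.

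Replicate 1 gave 2082 cells with 44017234 UMIs and replicate 2 gave 1193 cells with 22163354 UMIs. No barcode was shared by both libraries. A UMI stands for 1 captured RNA molecule, and levels are given as counts per 1000000 UMIs of a cell type in a mouse (CPM). The median mitochondrial share of a cell was 10.2% in replicate 1 and 5.55% in replicate 2. Of 56 marker genes, 46 were highest in the type they mark in both mice. The exceptions were Ascl2 of the stem cells, Atoh1 of the secretory progenitors, all 4 markers of the goblet progenitors, which were highest in another type, and Pcna, Mcm5, Mcm6 and Cdk4 of the TA cells. The TA cells were highest for Mki67 and Top2a in both mice, and goblet progenitors are called so by the authors' name alone. Since the types were named from the expression of these same cells, the tests below describe how far named types stand apart.

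The 40 genes together took the largest share of the UMIs in stem cells, followed by TA cells, among the 9 epithelial types of both mice. In stem cells they took 0.637% of the UMIs in replicate 1 and 0.545% in replicate 2. In TA cells the share was 0.521% and 0.451%, in secretory progenitors 0.476% and 0.394%, and in goblet progenitors 0.425% and 0.339%. All 8 of these values lay above those of the mature types, which ranged from 0.126% in enterocytes of replicate 1 to 0.331% in EECs of replicate 1, Paneth cells left aside. Paneth cells had 0.0251% and 0.0249%. In Paneth cells, which secrete antimicrobial peptides, 10 genes took 82.6% and 81.9% of all UMIs, so that every other gene has a low CPM there. IEL, which are blood-derived and were in no test, had 0.399% and 0.627% from 50 and 18 cells.

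The share of the cell cycle genes (96 genes of S phase and of G2 and mitosis) had another order. It was 1.15% and 0.915% in TA cells and 0.897% and 0.708% in goblet progenitors, against 0.519% and 0.370% in stem cells. Stem cells thus had a larger summed share of the ribosome biogenesis genes and a smaller one of the cell cycle genes than TA cells in both mice. Abundant genes such as Npm1 and Ncl weigh most in the first sum. Gene by gene, stem cells had the highest CPM of the epithelial types in both mice for 19 of the 40 genes, and TA cells for 5. In the test of stem against TA cells below, 1 of the 40 genes passed. Across the 9 epithelial types of a mouse, the rank correlation of the median level of the 40 genes with the share of the cell cycle genes was 0.717 in replicate 1 and 0.533 in replicate 2, given as a description, since the types of a mouse share a library.

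**Figure D1:**
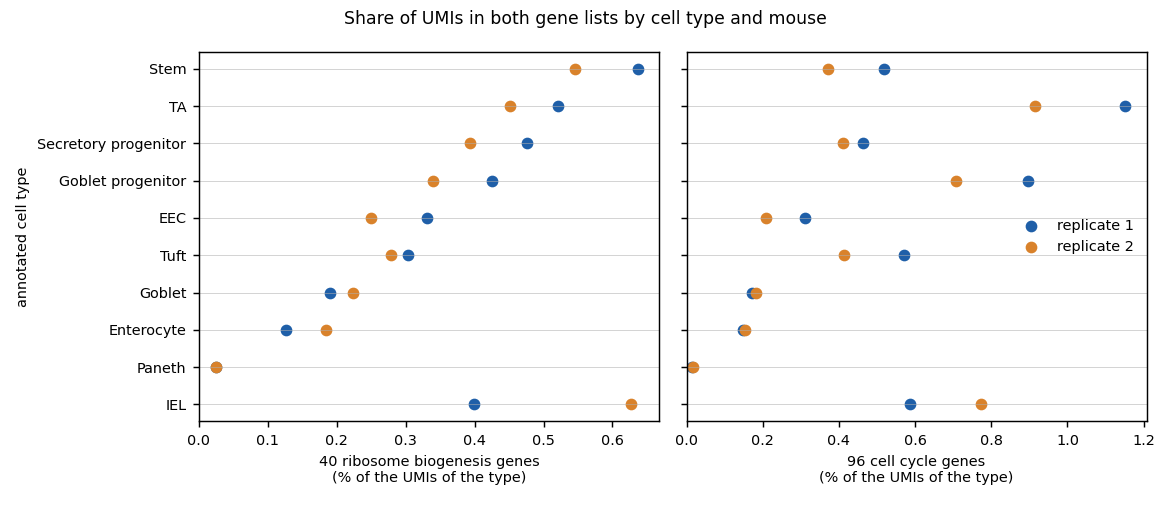
Share of all UMIs (in %) taken by the 40 ribosome biogenesis genes (left) and by 96 cell cycle genes (right) in each annotated cell type; each point is 1 mouse. Stem cells have the highest share of the first list among epithelial types (0.637% and 0.545%), while TA cells have the highest share of the second (1.15% and 0.915%).

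To compare types whose UMIs are held by few genes, levels were also scaled by TMM factors, which set the bulk of the genes equal between sums. On this scale the 40 genes were compared with their own mean over the 9 types. The median gene stood 0.90 above its mean on the log2 scale in stem cells of replicate 1 and 0.89 above it in those of replicate 2, and in TA cells the values were 0.60 and 0.54. All 40 genes were above their own mean in stem cells of replicate 1 and 39 in those of replicate 2. Enterocytes had the lowest median of replicate 1 (-1.02) and EECs that of replicate 2 (-0.63). Paneth cells, last by CPM, stood at -0.18 and -0.22, in place 6 of the 9 types in both mice. The median over all genes tested lay between -0.12 and 0.09 in every type and mouse.

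Stem or TA cells had the highest scaled level in both mice for 28 of the 40 genes, against 9.68% of all 11013 genes tested, stem cells alone for 26, against 4.81%, and TA cells alone for 1, Heatr1, against 3.21%. The other 12 genes had another or an unequal leading type, and those among them with the same type in both mice were Polr1a, highest in Paneth cells, and Imp3 and Pes1, highest in secretory progenitors. The lead of Paneth cells for Polr1a rests on few UMIs and on the scaling, with TMM factors of 0.156 and 0.121 in Paneth cells. By unscaled CPM stem cells led in both mice for 19 genes and TA cells for 5, against 3.83% and 5.10% of all genes tested. Paneth cells were lowest in both mice for 37 of the 40 genes by unscaled CPM, but this was so for 66.7% of all genes tested. After scaling, Paneth cells were lowest for 4 genes, against 8.58%, and enterocytes for 10, against 5.48%.

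**Figure D2:**
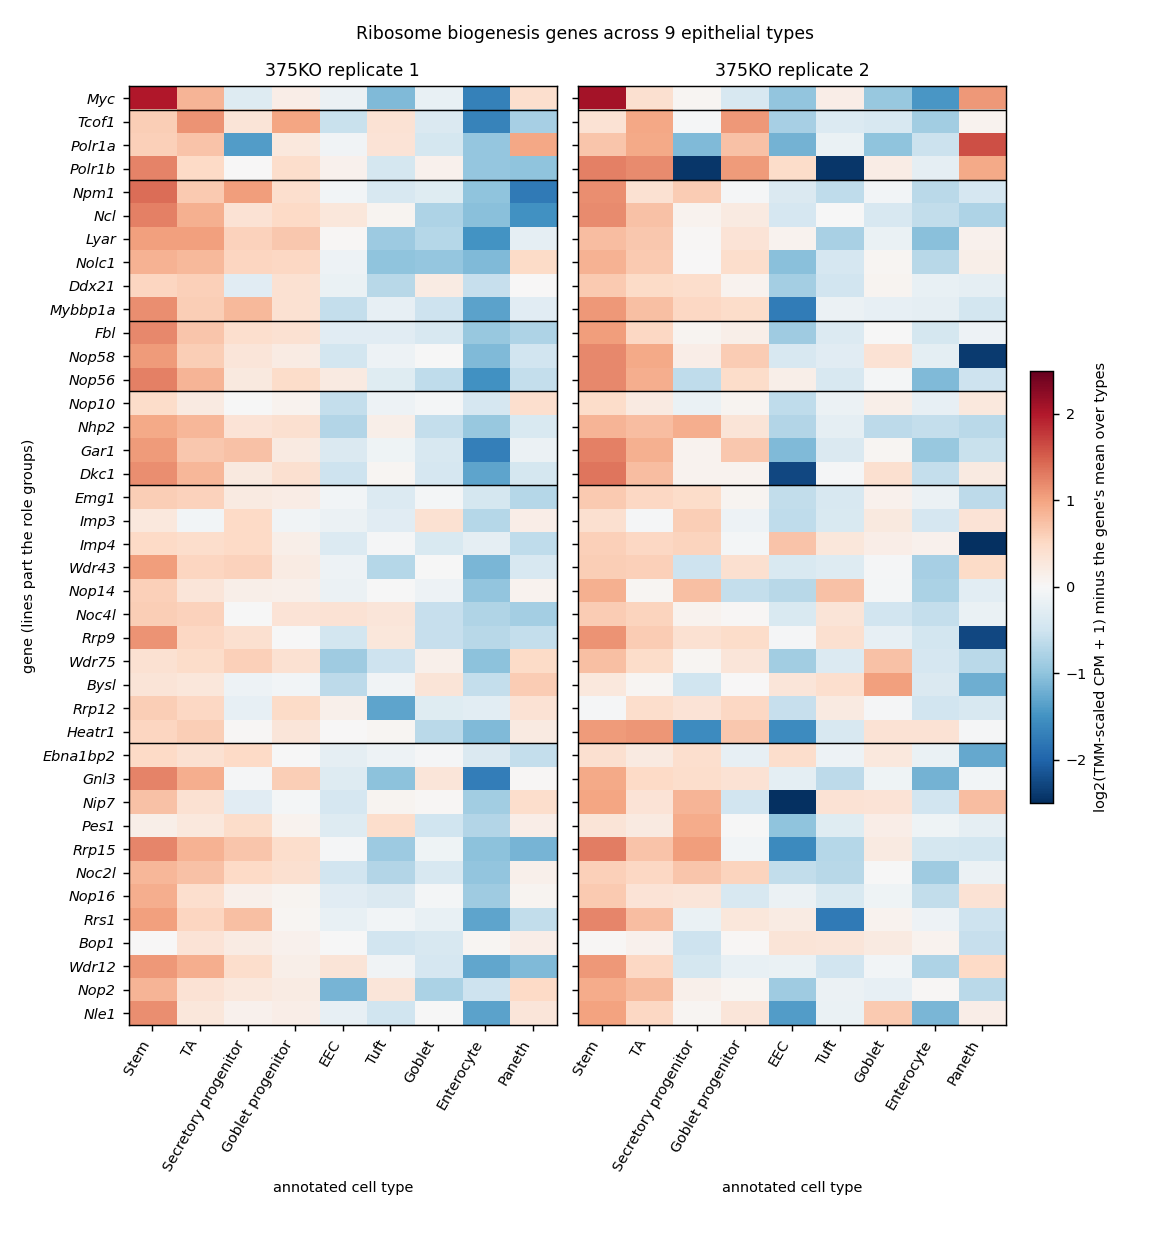
Level of each of the 40 genes (rows, parted by role) in each epithelial type (columns) of both mice, as log2(TMM-scaled CPM + 1) minus the mean of the gene over the 9 types of that mouse; colours end at 2.5 in either direction, and values beyond that have the end colour. The columns of stem and TA cells are above the mean for nearly all rows (40 and 39 genes in stem cells, 39 and 39 in TA cells).

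The first comparison asked whether stem and TA cells differed from the 5 mature types (enterocytes, goblet, Paneth, EEC and tuft cells). Stem and TA cells are called the proliferative types below. Goblet progenitors, which had more of the cell cycle genes than stem cells, were in neither group. Counts summed per mouse and type were fitted with edgeR's quasi-likelihood test with cell type and mouse as terms, and a gene passed when its p, adjusted by Benjamini-Hochberg over all 11013 genes tested, was under 0.05. All 40 genes entered the test. Of these, 38 were higher in stem and TA cells and none was lower, where 24.4% of all genes tested were called higher and 21.0% lower (45.4% in either direction). Before any fit, the sums of stem and TA cells in both mice all lay above those of the 5 mature types for 19 genes by scaled CPM, against 3.28% of all genes tested, and for the other 21 they overlapped. By unscaled CPM this held for 18 genes, against 4.12%. The median log2 fold change of the 40 genes was 1.18, against 0.01 for all genes tested. It was 1.27 in replicate 1 and 1.15 in replicate 2. All 40 genes were higher in stem and TA cells in both mice, against 41.8% of all genes tested. A further 4313 of the 11013 genes tested were lower in both mice. With library totals in place of TMM factors the split of calls over all genes moved from 53.7% higher to 90.9% higher, and all 40 genes passed. The 2 genes that did not pass were Bop1 (log2 fold change 0.16, SE 0.16, edgeR adjusted p = 0.47) and Bysl (0.27, SE 0.22, adjusted p = 0.355).

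Myc, the transcription factor of the group, lies on chromosome 15 (mm10 chr15:61985391-61990374, plus strand). It had 46.0 CPM in stem cells of replicate 1 and 105 CPM in those of replicate 2. TA cells had 21.7 and 35.3 CPM, goblet progenitors 13.0 and 19.2 CPM, and secretory progenitors 8.69 and 26.8 CPM. Tuft cells had 4.84 and 32.1 CPM, EECs 11.3 and 13.9 CPM, goblet cells 6.87 and 9.39 CPM, enterocytes 1.81 and 7.11 CPM, and Paneth cells 1.71 and 5.27 CPM. Stem cells were above every other type of their own mouse, but tuft cells of replicate 2 lay within the range of the TA cells, and Myc was higher in replicate 2 than in replicate 1 in all of these types. On the scaled level, Paneth cells stood at 11 and 43.6 CPM, above TA cells (26.7 CPM) in replicate 2. The log2 fold change of stem and TA cells over mature types was 1.81 (SE 0.18, edgeR adjusted p = 1.19e-09), the largest of the group, and it was 2.07 and 1.70 in the separate mice.

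**Figure D3:**
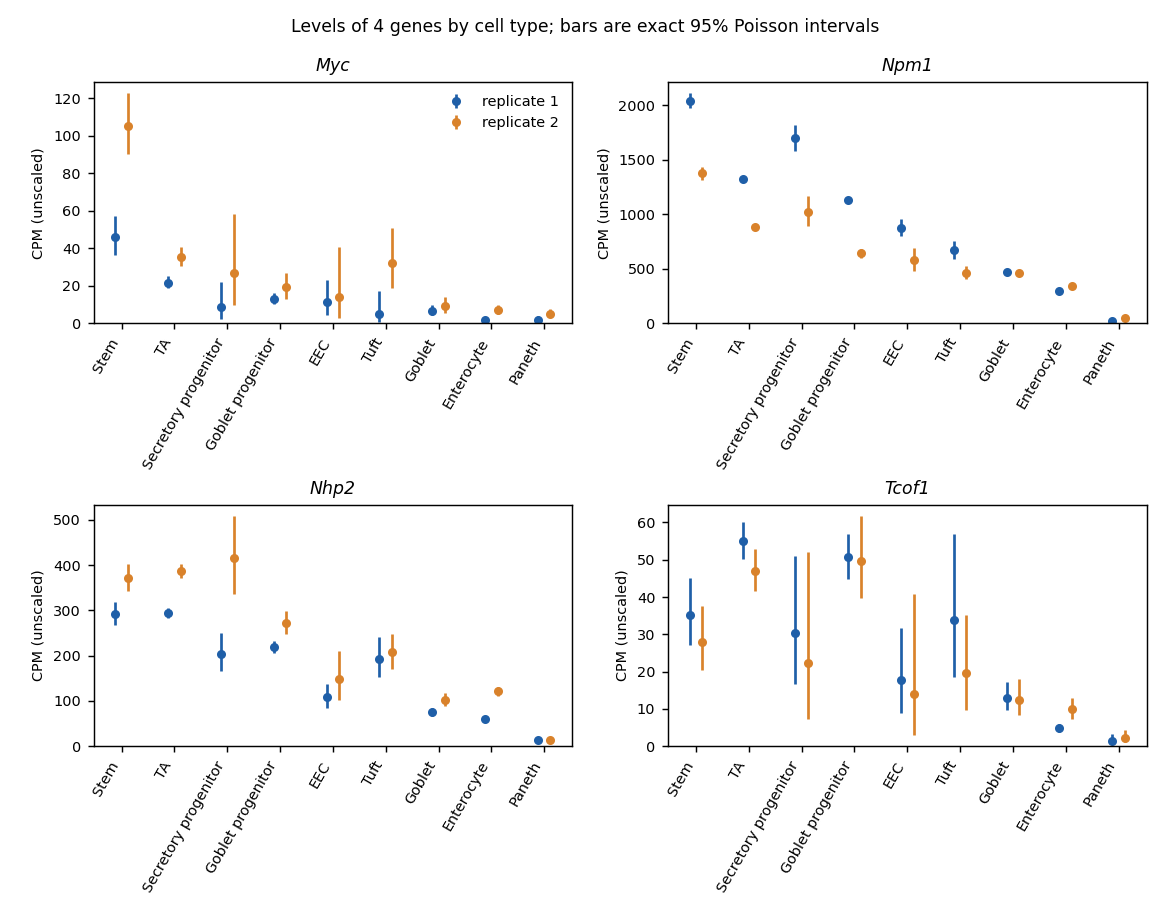
CPM of Myc, Npm1, Nhp2 and Tcof1 in the 9 epithelial types of both mice; each point is 1 mouse and bars are exact 95% Poisson intervals, which cover counting error only. Myc is highest in stem cells (46.0 and 105 CPM), Npm1 likewise (2043 and 1376 CPM), while Tcof1 is higher in TA cells (55.0 and 47.0 CPM) than in stem cells (35.3 and 28.1 CPM).

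The 3 genes of polymerase I transcription all rose, with a median log2 fold change of 1.38. Tcof1 encodes treacle, which supports transcription of the ribosomal DNA. It had 55.0 and 47.0 CPM in TA cells, 50.6 and 49.8 CPM in goblet progenitors and 35.3 and 28.1 CPM in stem cells, against 4.75 and 9.91 CPM in enterocytes and 13.0 and 12.5 CPM in goblet cells. Tuft cells of replicate 1 (33.9 CPM) overlapped with the stem cells. Polr1a, the largest subunit of the polymerase, had 20.2 and 17.5 CPM in stem cells and 23.9 and 23.3 CPM in TA cells. It had 4.34 and 4.46 CPM in secretory progenitors, from 2 and 1 UMIs, and 19.3 and 10.7 CPM in tuft cells, which overlapped with stem cells. On the scaled level, Paneth cells (20.1 and 28.4 CPM) were above TA cells (16.7 and 17.6 CPM) in both mice. The log2 fold change of Polr1a was 0.86 (SE 0.20, edgeR adjusted p = 0.000576). Polr1b, the second large subunit, was among the 5 genes with the largest change (1.53, SE 0.30, adjusted p = 9.35e-05). It was measured with 29 and 23 UMIs in stem cells.

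All 6 genes of the nucleolar proteins rose, with a median log2 fold change of 1.43. Npm1 (mm10 chr11:33152287-33163206, minus strand) encodes nucleophosmin, a chaperone of the granular part of the nucleolus. It had 2043 and 1376 CPM in stem cells, 1698 and 1026 CPM in secretory progenitors and 1320.0 and 887 CPM in TA cells. Enterocytes had 295 and 344 CPM and goblet cells 471 and 464 CPM, and EECs of replicate 1, with 878 CPM, came closest to the TA cells. Within each mouse, no mature type reached the TA level. Ncl, nucleolin, had 951 and 661 CPM in stem cells and 791 and 531 CPM in TA cells, against 145 and 170.1 CPM in enterocytes. EECs of replicate 1 (572 CPM) exceeded TA cells of replicate 2, but not those of their own mouse. The log2 fold change was 1.51 for Ncl (SE 0.12, edgeR adjusted p = 1.13e-09) and 1.44 for Npm1 (SE 0.19, adjusted p = 0.000152). The other 4 members, Nolc1, Mybbp1a, Lyar and the RNA helicase Ddx21, changed by 0.83 to 1.44. Of the 3′ ends of Npm1 transcripts, 11.6% of the 40-base stretches also occur in other genes, so that part of its reads may have been assigned elsewhere or dropped.

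Box C/D snoRNPs methylate ribosomal RNA, and their 3 core proteins all rose. Fbl (mm10 chr7:28169710-28179269, plus strand), fibrillarin, is the methyltransferase. It had 281 and 239 CPM in stem cells and 213 and 180.1 CPM in TA cells, against 47.8 and 75.4 CPM in enterocytes and 69.0 and 89.4 CPM in goblet cells. The values of the proliferative and the mature types did not overlap. Nop58 had 166 and 96 CPM in stem cells and 27.5 and 30.7 CPM in enterocytes. Nop56, its partner in the core, had 152 and 122 CPM in stem cells, 123 and 109.6 CPM in TA cells and 16.2 and 21.1 CPM in enterocytes. The log2 fold change of Nop56 was 1.56 (SE 0.12, edgeR adjusted p = 1.35e-11), that of Nop58 1.39 and that of Fbl 1.30. Shared 3′ stretches were frequent in Fbl (58.6%) and Nop56 (46.8%), so their absolute counts are uncertain.

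Box H/ACA snoRNPs convert uridine to pseudouridine. All 4 of their core proteins rose, but Nop10 by much less than the others. Nop10 had 363 and 653 CPM in stem cells and 339 and 606 CPM in TA cells, and in enterocytes 152 and 367 CPM. Every type was higher in replicate 2 than in replicate 1, so by unscaled CPM the groups overlapped across mice and not within a mouse. On the scaled level, Paneth cells (270.5 and 469.8 CPM) were above TA cells (236.1 and 458.0 CPM) in each mouse. The log2 fold change was 0.48 (SE 0.09, edgeR adjusted p = 3.12e-05), with 0.49 and 0.46 in the separate mice. Nhp2 (mm10 chr11:51619735-51623714, plus strand) had 292 and 372 CPM in stem cells, 294 and 386 CPM in TA cells and 204 and 415 CPM in secretory progenitors, against 59.4 and 121 CPM in enterocytes and 75.1 and 102 CPM in goblet cells. Its log2 fold change was 1.4 (SE 0.10, edgeR adjusted p = 2.18e-12). Gar1 (1.54, SE 0.14, adjusted p = 3.76e-10) had 96.4 and 123 CPM in stem cells and 9.91 and 23.0 CPM in enterocytes. Dkc1, the pseudouridine synthase, changed by 1.44.

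Of the 11 factors of the small subunit 10 rose, with a median log2 fold change of 0.89, the lowest of the groups with several members. Emg1, a methyltransferase of the small subunit RNA, had 246 and 259.9 CPM in stem cells and 261 and 262 CPM in TA cells, against 89.3 and 133 CPM in enterocytes and 116 and 139.9 CPM in goblet cells. EECs of replicate 1 were the mature sum with the highest Emg1 (182 CPM), still below both proliferative types. Imp3 and Imp4 belong to the RNP that makes the first cuts in the precursor. Imp3 had 166 and 145 CPM in stem cells and 144 and 117 CPM in TA cells. Its unscaled values overlapped with those of goblet cells (136 and 102 CPM) and EECs (148 and 83.6 CPM). On the scaled level, Paneth cells (117.0 and 115.6 CPM) and goblet cells (136.7 and 107.7 CPM) were above TA cells (100.3 and 88.6 CPM) in both mice. The log2 fold change of Imp3 was 0.27 (SE 0.10, edgeR adjusted p = 0.0299), the lowest among the genes that passed. Imp4 had 85.8 and 64.2 CPM in stem cells and 89.9 and 66.6 CPM in TA cells, but EECs of replicate 2 had 83.6 CPM, from 18 UMIs. It changed by 0.78 (SE 0.16, adjusted p = 0.000158). Rrp9 changed most within this group (1.38).

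Of the 12 factors of the large subunit 11 rose, with a median log2 fold change of 1.16. Gnl3, nucleostemin, had 86.3 and 89.1 CPM in stem cells, 73.3 and 71.5 CPM in TA cells and 60.5 and 63.0 CPM in goblet progenitors, against 7.54 and 17.4 CPM in enterocytes. EECs of replicate 2 (46.4 CPM) were the highest mature sum, so the values did not overlap. Ebna1bp2 had 105 and 89.8 CPM in stem cells and 105 and 87.1 CPM in TA cells, and it overlapped with EECs of replicate 2 (111 CPM, from 24 UMIs). Nip7, which acts with the pre-ribosome of the large subunit, had 67.3 and 63.6 CPM in stem cells and 57.1 and 44.6 CPM in TA cells. Tuft cells (48.4 and 48.2 CPM) overlapped with the TA cells. On the scaled level, Paneth cells (42.0 and 45.5 CPM) were above TA cells (39.8 and 33.7 CPM) in both mice. The log2 fold changes were 1.44 for Gnl3 (SE 0.14, edgeR adjusted p = 1.72e-09), 0.62 for Ebna1bp2 and 0.71 for Nip7. Rrp15 had the second largest change of the whole group (1.61, SE 0.17, adjusted p = 3.69e-09), with 69.0 and 63.6 CPM in stem cells and 10.4 and 16.5 CPM in enterocytes. Bop1, Pes1 and Wdr12 form a complex, and their changes were unequal, with 0.16 for Bop1, 0.46 for Pes1 and 1.30 for Wdr12. Bop1 had 30.3 and 24.9 CPM in stem cells and 35.4 and 37.1 CPM in EECs.

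**Figure D4:**
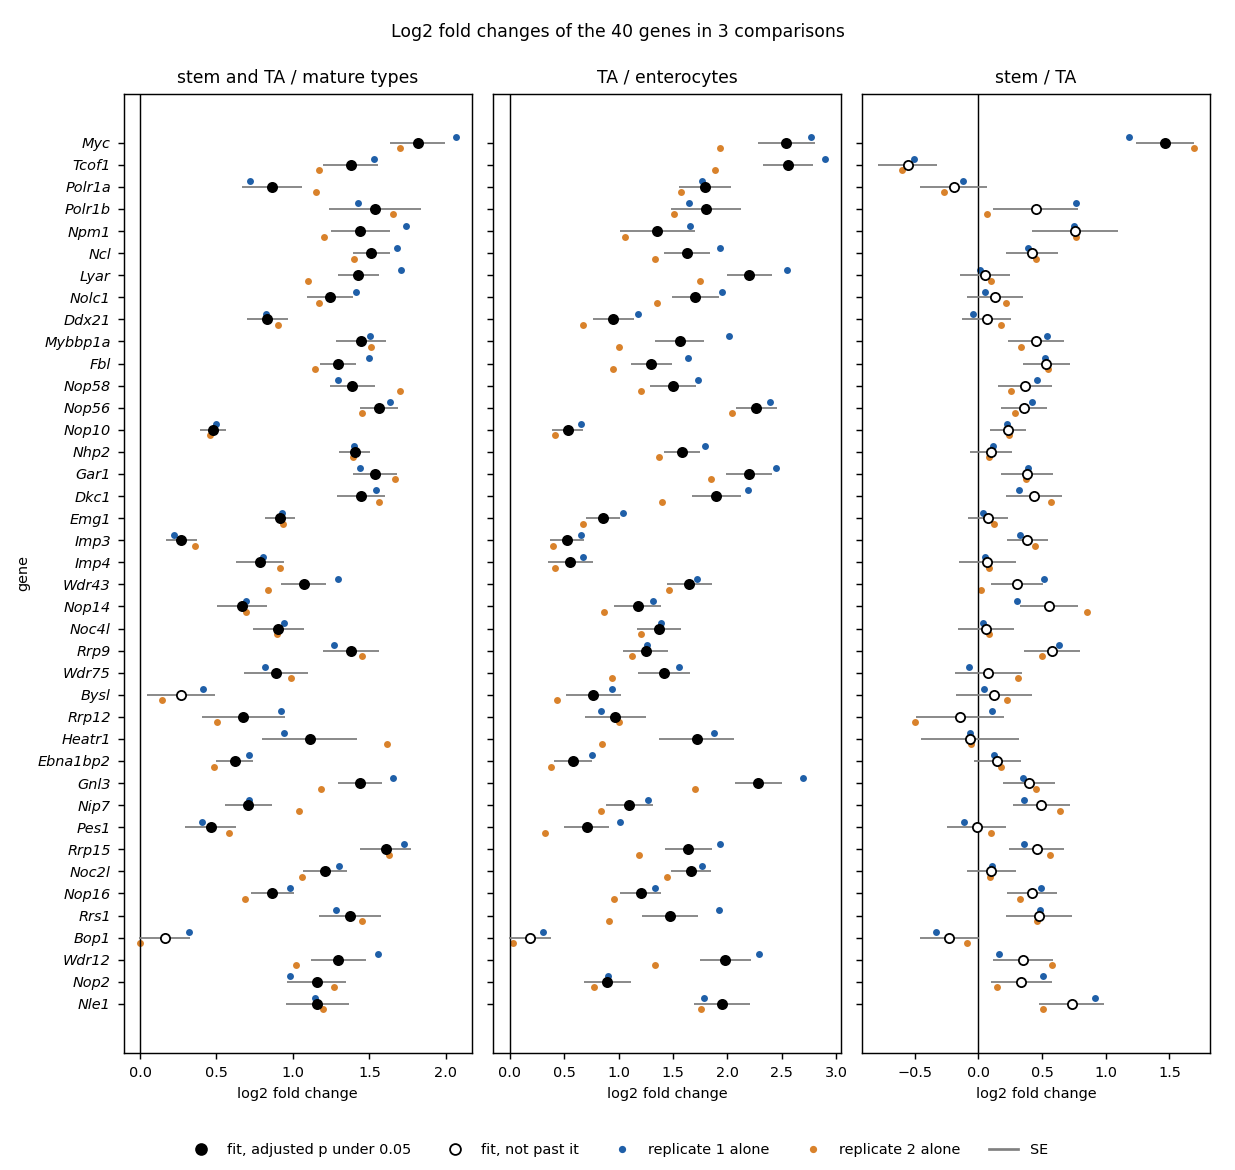
Log2 fold change of each of the 40 genes (rows) from the edgeR fit in 3 comparisons (panels), with its SE as a grey bar; filled circles passed an adjusted p of 0.05, and small points are the separate mice. In the left panel 38 genes passed and in the middle panel 39, all to the right of 0, and in the right panel Myc alone passed.

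The median mitochondrial share was 10.2% and 5.90% in stem cells, 13.2% and 7.59% in enterocytes and 0.0907% and 0.185% in Paneth cells, and the median number of UMIs per cell differed between types from 7400 in EECs of replicate 1 to 80820 in Paneth cells of replicate 2. The part of these measures in the differences between types was not tested by a model. With each cell thinned to 5000 UMIs, 35 of 37 genes tested were higher in stem and TA cells (median 1.59), but all genes shifted too, to a median of 0.27 and 71.7% of calls higher. With a stricter limit on mitochondrial reads and gene number 38 of 40 were higher, where 61.7% of all calls were.

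The second comparison followed the absorptive lineage, from TA cells to enterocytes. Of the 40 genes 39 were higher in TA cells and none was lower, where 22.6% of all genes tested were called higher and 29.1% lower (51.7% in either direction). The share of calls that were higher was 43.7%, and 69.7% under library totals. The median log2 fold change was 1.49, against -0.06 for all genes. It was 1.69 in replicate 1 and 1.09 in replicate 2. All 40 genes were higher in TA cells in both mice. Of all 11013 genes tested, 4344 were higher and 5003 lower in both mice. The gene that did not pass was Bop1 (0.19, SE 0.19, edgeR adjusted p = 0.442), which had 41.6 and 29.2 CPM in TA cells and 23.6 and 23.2 CPM in enterocytes. Bysl, which did not pass in the first comparison, was higher here (0.77, SE 0.25, adjusted p = 0.0105).

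The 5 largest changes between TA cells and enterocytes were those of Tcof1, Myc, Gnl3, Nop56 and Lyar. Tcof1 was 5.86-fold higher in TA cells (log2 fold change 2.55, SE 0.23, edgeR adjusted p = 6.97e-11), and Myc 5.82-fold (2.54, SE 0.26, adjusted p = 1.33e-09). Gnl3 changed by 2.28 (SE 0.21), Nop56 by 2.26 (SE 0.19) and Lyar by 2.20 (SE 0.20). Lyar (mm10 chr5:38220470-38234306, plus strand), a nucleolar zinc finger protein, had 144 and 109 CPM in TA cells and 16.9 and 26 CPM in enterocytes, and these values did not overlap. In all 5 the change was larger in replicate 1, with 2.90 and 1.89 for Tcof1 as the widest gap. The smallest changes that passed were those of Imp3 (0.53), Nop10 (0.54), Imp4 (0.56) and Ebna1bp2 (0.58).

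The third comparison set stem cells against TA cells. Here 1 of the 40 genes was higher in stem cells and none was lower, where 1.90% of all genes tested were called higher and 2.93% lower (4.83% in either direction). The share of calls that were higher was 39.3%, and 23.5% under library totals. That gene was Myc, with 46.0 and 105 CPM in stem cells and 21.7 and 35.3 CPM in TA cells. Within each mouse the stem cells were higher, and across mice the TA cells of replicate 2 stayed below the stem cells of replicate 1. The fold was 2.77 (log2 fold change 1.47, SE 0.23, edgeR adjusted p = 5.37e-05), with 1.18 and 1.69 in the separate mice. Without the mouse as a term, Myc did not pass (adjusted p = 0.673) and none of the 40 genes did.

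Of the other 39 genes none passed. The median log2 fold change of the 40 genes was 0.34, against -0.01 for all genes tested, and 32 genes were above 0 in both mice, against 31.7% of all genes tested. Values of 0.76 for Npm1 (SE 0.34, edgeR adjusted p = 0.289) and 0.73 for Nle1 (SE 0.25, adjusted p = 0.0979) were the next largest. For Npm1 the approximate 95% interval of the log2 fold change ran from 0.10 to 1.42, so that a difference of 2-fold lies within it. At the other end stood Tcof1 with -0.56 (SE 0.23, adjusted p = 0.201) and -0.51 and -0.60 in the separate mice. With 2 mice a difference of this size could not be told from 0 after adjustment.

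The fourth comparison followed the goblet lineage, which makes mucus, from goblet progenitors to goblet cells. Of the 40 genes 11 were higher in goblet progenitors and 1 was lower, where 13.2% of all genes tested were called higher and 16% lower (29.1% in either direction). The median log2 fold change was 0.39, with 0.56 in replicate 1 and 0.23 in replicate 2, against -0.01 for all genes. In both mice 24 genes were higher in goblet progenitors, against 34.2% of all genes tested. Of the 6 nucleolar proteins 4 were higher, and of the 12 factors of the large subunit 1 was. Median UMIs per cell were 28554.5 and 19683 in goblet progenitors and 13649 and 15708.5 in goblet cells, and the share of the cell cycle genes was 0.897% and 0.708% against 0.173% and 0.181%. The part of either in these differences was not tested.

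Tcof1 had 50.6 and 49.8 CPM in goblet progenitors and 13.0 and 12.5 CPM in goblet cells, a 2.78-fold difference after scaling (log2 fold change 1.48, SE 0.26, edgeR adjusted p = 4.78e-05). Polr1a had 17.3 and 19.2 CPM against 6.87 and 3.58 CPM (1.18, SE 0.32, adjusted p = 0.00558). Lyar had 114 and 84.0 CPM against 29.3 and 43.4 CPM (1.0, SE 0.22, adjusted p = 0.000658). These 3 genes, picked for their large changes, did not overlap between the types. The share of all genes without overlap in this comparison was not counted. Nolc1, a chaperone of snoRNPs, and Nhp2 each changed by 0.99, Nolc1 with 1.52 and 0.40 in the separate mice and Nhp2 with 0.99 and 0.98. Imp3 was the gene that fell, with 143 and 107 CPM in goblet progenitors and 136 and 102 CPM in goblet cells. By CPM it was thus slightly higher in goblet progenitors, and it was lower only after scaling (-0.42, SE 0.16, adjusted p = 0.0499). Under scaling by library totals its log2 fold change was 0.07. Scaling by library totals shifted the median of all genes to 0.49 in this comparison, the share of calls that were higher moved from 45.2% to 84.3%, and 31 of the 40 genes were then called higher and none lower. The call of Imp3 was kept under 2 of 8 alternatives.

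The fifth comparison set EECs against tuft cells, both rare secretory types. None of the 40 genes was higher in EECs and 1 was lower, where 8.06% of all genes tested were called higher and 6.70% lower (14.8% in either direction). This was Nhp2, with 108 and 149 CPM in EECs and 193 and 207 CPM in tuft cells, values that did not overlap. Its log2 fold change was -0.69 (SE 0.23, edgeR adjusted p = 0.0374). The call ended under 5 of 8 alternatives (DESeq2, library totals, no filter on low counts, no mouse term and thinned cells), with adjusted p from 0.0194 to 0.38 over the 8. Nop10, of the same particle, had 208 and 367 CPM against 281 and 504 CPM and missed the threshold (-0.48, SE 0.17, adjusted p = 0.0516). All 4 box H/ACA genes were below 0 in both mice, as were 17 of the 40 genes in all and 3589 of the 11013 genes tested. Myc pointed in opposite directions in the mice (1.05 and -1.19). These types had 20 to 54 cells per mouse, and the SE reached 1.16 for Polr1b, which had 5 and 2 UMIs in EECs and 2 and 0 UMIs in tuft cells. A difference in such a gene was not detectable at this depth.

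The sixth comparison asked whether the genes varied with cell cycle gene content inside an annotated type. Within stem cells and within TA cells of each mouse, cells were ranked by the share of their UMIs in cell cycle genes, and the top class was set against a bottom class of the same size (46 and 39 stem cells and 106 and 107 TA cells per class). None of the 40 genes is among the cell cycle genes. The classes are ranges of a score and not types, and 11 to 19 of the stem cells and 71 to 87 of the TA cells lay within 10% of a class limit. Of the 40 genes 1 was higher in the top class and none was lower, where 1.45% of all 7981 genes tested were called higher and 0.413% lower (1.87% in either direction). The median log2 fold change was 0.12, against -0.02 for all genes. In all 4 pairs of sums 12 genes had a higher CPM in the top class, against 15.4% of all genes tested. Npm1 was the 1 gene whose direction was opposite in stem and TA cells of both mice, a pattern of 13.8% of all genes tested.

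Lyar was the gene that passed. In stem cells it had 79.2 CPM in the lower and 163 CPM in the top class of replicate 1, and 61.7 and 165 CPM in replicate 2. In TA cells it had 119 and 160.1 CPM in replicate 1 and 89.6 and 121 CPM in replicate 2. All 4 top classes were above their bottom classes, and the log2 fold change was 0.62 (SE 0.14, edgeR adjusted p = 0.0238). In stem cells the bottom class also had fewer UMIs per cell, with medians of 9640.5 and 11626 against 14107.5 and 14078, and after thinning every cell to 5000 UMIs Lyar changed by 0.27 and did not pass (adjusted p = 0.735). Nop58 (0.46, adjusted p = 0.0805) and Nop56 (0.47, adjusted p = 0.12) had higher CPM in all 4 top classes and did not pass. Myc differed in direction between the mice, with 0.39 in replicate 1 and -0.81 in replicate 2.

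**Figure D5:**
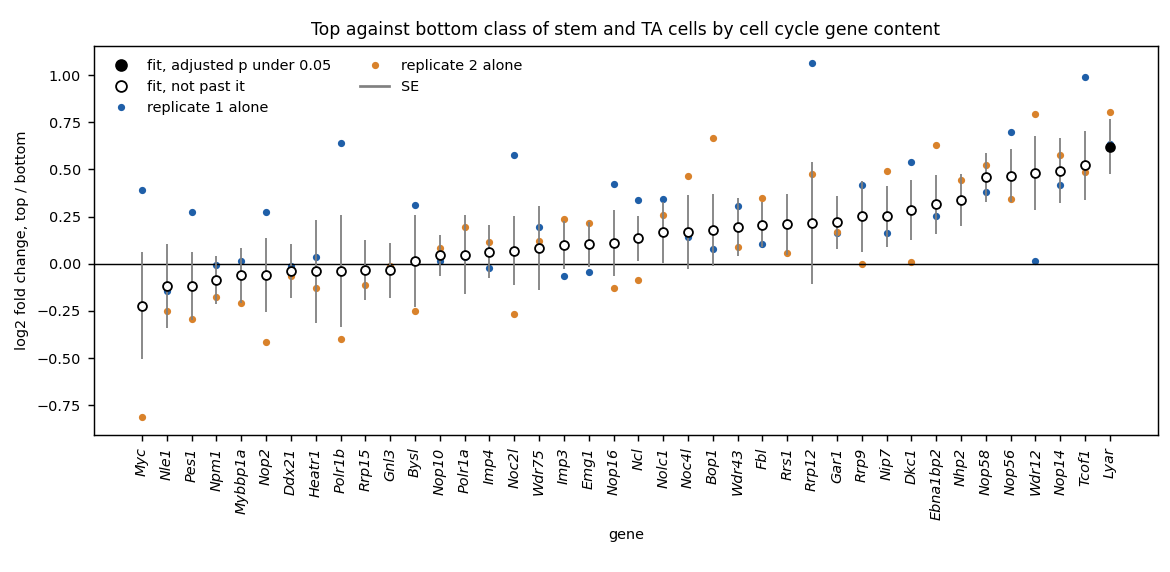
Log2 fold change of the 40 genes, in order, between the top and the bottom class of stem and TA cells by cell cycle gene content, from the edgeR fit with its SE (bars); small points are the separate mice. Lyar (0.62) at the right end is the gene that passed, and the mice lie on opposite sides of 0 for Myc (0.39 and -0.81).

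A further 100 ribosome biogenesis genes outside the group were counted for comparison. Of these, 68 were higher in stem and TA cells than in mature types and none was lower, with a median log2 fold change of 0.61, where 24.4% of all genes tested were higher and 21.0% lower. All 9 genes of snoRNP assembly rose, as did 26 of 39 factors of each subunit and 7 of 13 genes of the polymerase I machinery. The largest changes were those of Rrp1b, a large subunit factor (2.48, SE 0.26), Cd3eap, a subunit of polymerase I (1.81, SE 0.17), and Naf1, an assembly factor of H/ACA particles (1.66, SE 0.24). Between TA cells and enterocytes 70 were higher and 2 were lower, against 22.6% and 29.1% of all genes tested. The lower genes, Eftud1 (-0.71, SE 0.21, edgeR adjusted p = 0.00462) and Eif6 (-0.63, SE 0.16, adjusted p = 0.00189), are known to act together in the last, cytoplasmic step of the large subunit. Eif6 had 291 and 226 CPM in TA cells and 335 and 267 CPM in enterocytes. In stem cells against TA cells, Cd3eap alone passed (0.87, SE 0.21, adjusted p = 0.00922), with 57.7 and 46.8 CPM against 34.2 and 28.2 CPM. From goblet progenitors to goblet cells 18 were higher in the progenitors and 3 were lower, against 13.2% and 16% of all genes tested, so the share called higher was near that of all genes. Between EECs and tuft cells, as between the cell cycle classes, none passed, with 9 and 8 genes at an unadjusted p under 0.05.

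Of 10 genes of the network of Myc and Max, 2 were higher and 3 lower in stem and TA cells than in mature types, near the shares of all genes tested (24.4% and 21.0%). In TA cells against enterocytes 3 were higher and 6 lower, with a median log2 fold change of -0.91, where 22.6% of all genes tested were higher and 29.1% lower. Mxd1 and Mxd4 dimerise with Max and repress the targets of Myc. Both were lower in stem and TA cells than in mature types. The log2 fold change there was -2.21 for Mxd1 (SE 0.32, edgeR adjusted p = 1.41e-06) and -1.74 for Mxd4 (SE 0.16, adjusted p = 1.75e-10). Mxd1 had 71.5 and 61.3 CPM in enterocytes and 8.29 and 5.95 CPM in TA cells. Mxd3, of the same family, was higher in TA cells than in enterocytes (3.79, SE 0.53, adjusted p = 4.23e-06) and lower in stem cells than in TA cells (-2.78, SE 0.72, adjusted p = 0.0259). It had 10.5 and 17 CPM in TA cells, and 2.80 and 0.623 CPM in stem cells, from 5 and 1 UMIs. In the top class of cell cycle content Mxd4 was lower (-1.32, SE 0.26, adjusted p = 0.00705). Mycl was higher in TA cells than in enterocytes (1.30, SE 0.24, adjusted p = 3.92e-05), and Mycn was called higher in stem and TA cells (adjusted p = 0.0497) from 42 and 25 UMIs in TA cells. Max was lower in goblet progenitors than in goblet cells (-0.73, SE 0.27, adjusted p = 0.042).

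Between the mice there was 1 library each, and no test was made. Over all epithelial cells the 40 genes summed to 2655 CPM in replicate 1 and 2694 CPM in replicate 2. With types weighted alike the order turned, with 3372 and 2989 CPM, and 29 of the 40 genes were higher in replicate 1, against 21 when cells were pooled. The median ratio of replicate 1 to replicate 2 was then 1.14, where that of all genes with at least 50 CPM was 1.16. Of 13 members with at least 50 CPM in either mouse, none was 2-fold or more apart with 1 mouse ahead in at least 5 types, where 10.6% of the 2644 genes with that level did. Myc, below that level, had 9.48 CPM in replicate 1 and 23.3 CPM in replicate 2. Nop10 had a ratio of replicate 1 to replicate 2 of 0.522 over all epithelial cells, and Npm1 one of 1.25.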

How the data were processed

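Crypt cells of 2 mice were profiled by droplet-based 3′ single-cell RNA-seq. The authors made the UMI counts per gene and barcode with Cell Ranger 3.0.1 on mm10, used SoupX against free RNA (for which deposited matrix is not given in the sources used here), removed scDblFinder doublets and cells with fewer than 1500 genes or more than 25% mitochondrial reads, and named clusters in Seurat by module scores of known markers. The submitters' processing notes list Seurat 3.2.1. The deposited mitochondrial percent of each cell is a share of its UMIs. The authors' annotation was joined by cell order, which gave matching UMI totals and gene numbers for 3275 of 3275 cells. Columns of 2937 wild-type cells, which are samples of another series, were left out, as were the sctransform values and doublet calls.

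UMI counts were summed per mouse and type, and 18 epithelial sums were fitted with the quasi-likelihood test of edgeR 4.0.16 in R 4.3.3 (filterByExpr, TMM, robust; terms for type and mouse; 8 residual degrees of freedom, 3 for the cell cycle classes). Tests were two-sided, with Benjamini-Hochberg adjustment over all genes tested and a threshold of 0.05. Values of separate mice are differences of log2 CPM with a prior count of 2. The mouse term pairs types taken from the same animal. With 2 mice, p-values rest on the spread that the terms of the model leave among the sums of these 2 animals. Scripts were tested on simulated counts. Alternatives were DESeq2 1.42.0, other scalings, no filter on low counts, no mouse term, thinning to 5000 UMIs (46 cells left out), a stricter cell filter (at least 2000 genes, at most 15% mitochondrial reads), no Paneth cells, cell cycle classes divided at the median, and each mouse left out.

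The genes, their roles and all lists were chosen with earlier results of these data known. The genes named with values are Myc, the 2 members with the highest mean CPM in each role (3 in roles with more than 10 members), the 5 largest changes past the threshold in each direction, members past it against the majority, and the 3 largest of the other lists. Bop1, Bysl, Nle1, Dkc1, Rrp9, Pes1, Wdr12 and others outside this rule were named after their values were seen. Gene positions are from GENCODE M21 (mm10), promoters from RefSeq.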

Additional observations from a re-analysis of the deposited data

Results flagged for a closer look

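The barcodes that the authors did not keep as cells carried UMIs of all 40 genes. In replicate 1, 5583 such barcodes held 20287851 UMIs, and the 40 genes summed to 1353 CPM (exact 95% Poisson interval 1338 to 1370), against 2655 CPM in the kept epithelial cells. In replicate 2, 58 barcodes gave 1162 CPM (1108 to 1217), against 2694 CPM in the kept cells. These values are given as a description of data outside the comparisons. At this depth a sum over 40 genes could hardly fall below the level of 3 counts (0.148 and 1.98 CPM), so passing it says little. The mitochondrial share of these UMIs was 32.9% in replicate 1 and 2.18% in replicate 2, against 10.4% and 4.86% in kept cells.

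Npm1 is given because its difference between cells high and low in cell cycle genes had one direction in stem cells of both mice (-0.22 and -0.50 on the log2 scale) and the other in TA cells of both mice (0.20 and 0.14). The stem effect was 0.53 below the TA effect (a difference of -0.53), and this difference was not tested. Of the 40 genes it was the only one with this pattern (2.5%), where 13.8% of all 7981 genes had it.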

How the results depend on the processing

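The 2 comparisons with most calls, stem and TA cells against mature types and TA cells against enterocytes, kept their counts within 1.5 times under all 8 alternatives that gave a test (31 to 40 and 29 to 40 genes). Genes that passed and did not under at least 1 of them included Imp3, Nop10, Pes1 and Wdr75, while Bop1 and Bysl passed under library totals in the first and Bop1 in the second. Under library totals the median of all genes rose to 0.74 in the first of these and the split of calls moved from 53.7% to 90.9% higher, while the members' median relative to all genes was 1.18 against 1.17. With cells thinned it was 1.32. The remaining counts rest on few genes. For stem against TA cells it was 1, and it became 2 with no filter on low counts (Myc, and Tcof1 lower), with thinned cells and without Paneth cells (Myc and Npm1), and 0 without the mouse block. For goblet progenitors against goblet cells it was 12, and it became 31 under library totals and 3 without the mouse block (Lyar, Polr1a, Tcof1). Imp3 changed direction there under library totals (0.071). For EECs against tuft cells it was 1, and it became 0 with DESeq2, library totals, no filter, no mouse block and thinned cells, and 2 with the stricter cell filter and without Paneth cells (Nhp2 and Nop10). The members' median in that comparison, -0.04, was 0.0054 under library totals, 0.00025 without the block, and 0.032 without replicate 2. Myc was 1.05 there without replicate 2 and -1.19 without replicate 1. For cell cycle classes the count was 1, and it became 2 under library totals (Lyar, Nop58), 3 with no filter (also Nop56), and 0 with DESeq2, no mouse block and thinned cells. Myc changed by 0.39 there without replicate 2 and by -0.81 without replicate 1. Over all genes, calls without the mouse block numbered 3260, 70, 2843, 1044, 849 and 1 for mature types, stem against TA cells, TA cells against enterocytes, the goblet lineage, EECs and the cell cycle classes, against 5004, 532, 5694, 3208, 1626 and 149 with it. Thinned cells gave 3011, 1674 and 41 for mature types, the goblet lineage and the cell cycle classes, no filter gave 834 for stem against TA cells and 271 for the cell cycle classes, and DESeq2 gave 52 for the latter. The cause of these changes was not tested. Without replicate 1 or 2 the medians ran from 1.15 to 1.27, 0.25 to 0.31, 1.09 to 1.69, 0.23 to 0.56, -0.46 to 0.032 and 0.10 to 0.23 in the same order, and no test was possible with 1 mouse. With types weighted alike, no member was listed between the mice (0 of 14). Depth limits the rare types most, where 3 UMIs equal 13.9 CPM in EECs of replicate 2.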
